A study of Mus musculus with 12 samples.

Results

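Expression of 40 genes of cell proliferation was followed in sham-operated and pressure-overloaded hearts of wild-type and apelin-knockout mice. The genes were chosen by name for their roles in the cell cycle, with earlier results of these data known. Of the 40, 39 had a probe set assigned to a single gene on the array, out of 18193 such genes in all. Ccnb1 was the member with none. The 39 were read by 94 probe sets, and the probe set with the highest mean log2 value over the 12 arrays stood for its gene. The CDK inhibitor gene Cdkn1a had the largest difference between banded and sham hearts among the tested members in both genotypes. The inhibitor genes Cdkn1b, narrowly, and Cdkn1c were lower in all 3 knockout banded arrays than in the knockout sham arrays. Of all tested genes, 26.6% did not overlap between these knockout groups. None of these inhibitor genes passed the test in the full set of arrays. Most mitotic genes read below the background threshold in every array except knockout banded 2, where 11 of 17 exceeded it.

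Cells enter the division cycle when D-type cyclins with the kinases CDK4 and CDK6, and then cyclin E with CDK2, inactivate the retinoblastoma protein and free E2F factors, which switch on genes of DNA replication. Cyclin A and cyclin B with CDK1 drive the later steps, the anaphase-promoting complex ends mitosis, and the proteins p21, p27 and p57 hold the kinases in check. Most heart muscle cells of the mouse leave the cycle soon after birth, whereas fibroblasts, endothelial cells and macrophages of the adult heart can still divide. In the loaded heart, muscle cells mainly grow in size.

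The 12 arrays were Affymetrix mouse expression arrays of total heart RNA, in 4 groups of 3 labelled as biological replicates. The wild-type groups, sham and banded, kept the apelin gene, Apln, and the knockout groups, sham and banded, were labelled as lacking it. Banding narrows the aorta so that the left ventricle pumps against a higher pressure, and sham animals were the operated controls. The mouse strain, age and sex, how the knockout was made, the time from operation to collection, and whether an array held a single heart's RNA were not given in the sources used here.

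The array labelled knockout banded 1 stood apart from its group for several genes. It read 271 for Apln, between the lowest and highest wild-type readings (205 and 333), and the remaining 5 knockout readings were 63.7 to 160.1. Among its load-responsive genes, Myh7 (9203) and Acta1 (8138) were close to the other knockout banded arrays. Nppb (4999) lay between the knockout sham arrays (1298 to 4240.4) and the other knockout banded arrays (8018 and 8390.3), and Nppa (7756) lay within the knockout sham range of 5899 to 8848. The array also held the airway transcript Scgb1a1 at 1094, where the other arrays read 1.93 to 49.8. The fat transcript Adipoq read 392 there, 327 in wild-type banded 1, 103 in knockout banded 3 and 3.63 to 49.9 in the remaining arrays. In the wild type, Myh7 was high in sham 1 (5182) and low in banded 3 (1918). Wild-type banded 3 also read 1255 for Xist, the RNA made from the inactive X chromosome of female cells, where the other 11 arrays read 43.3 to 89.2. Without wild-type banded 3 no member passed in any contrast, and the banding differences in wild-type hearts were 0.68 for Cdkn1a (adjusted p = 0.961) and -0.45 for Cdk6 (adjusted p = 0.949). Banding differences without the array labelled knockout banded 1 are given in numbers for the CDK inhibitor genes and for other cell cycle genes that passed without it. Counts of genes that passed are also given without it. For the remaining tested members, the banding difference in knockout hearts without that array is plotted but not printed. For the untested members, Mki67, Cdk1 and Top2a among them, fitted differences are given with that array only, so their dependence on it is not shown. All 10 cardiomyocyte markers read above background in every array.

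A level counted as above background when it exceeded the 95th percentile of 81 probe sets of olfactory, vomeronasal and taste receptors on the same array, a threshold of 41.2 to 65.1 in intensity units. By that measure 24 of the 39 members were above background in at least 3 of the 12 arrays, 16 in all 12, and 8 in none. The split followed the phases of the cycle. All 5 genes of the G1 cyclins and kinases, 9 of the 10 genes of DNA replication and nucleotide supply and all 3 CDK inhibitors were above background, against 1 of the 4 genes of S phase entry and 6 of the 17 genes of G2 and mitosis. Intensities of different probe sets also depend on how well each binds its target, so the levels of different genes were not set against each other.

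**Figure D1:**
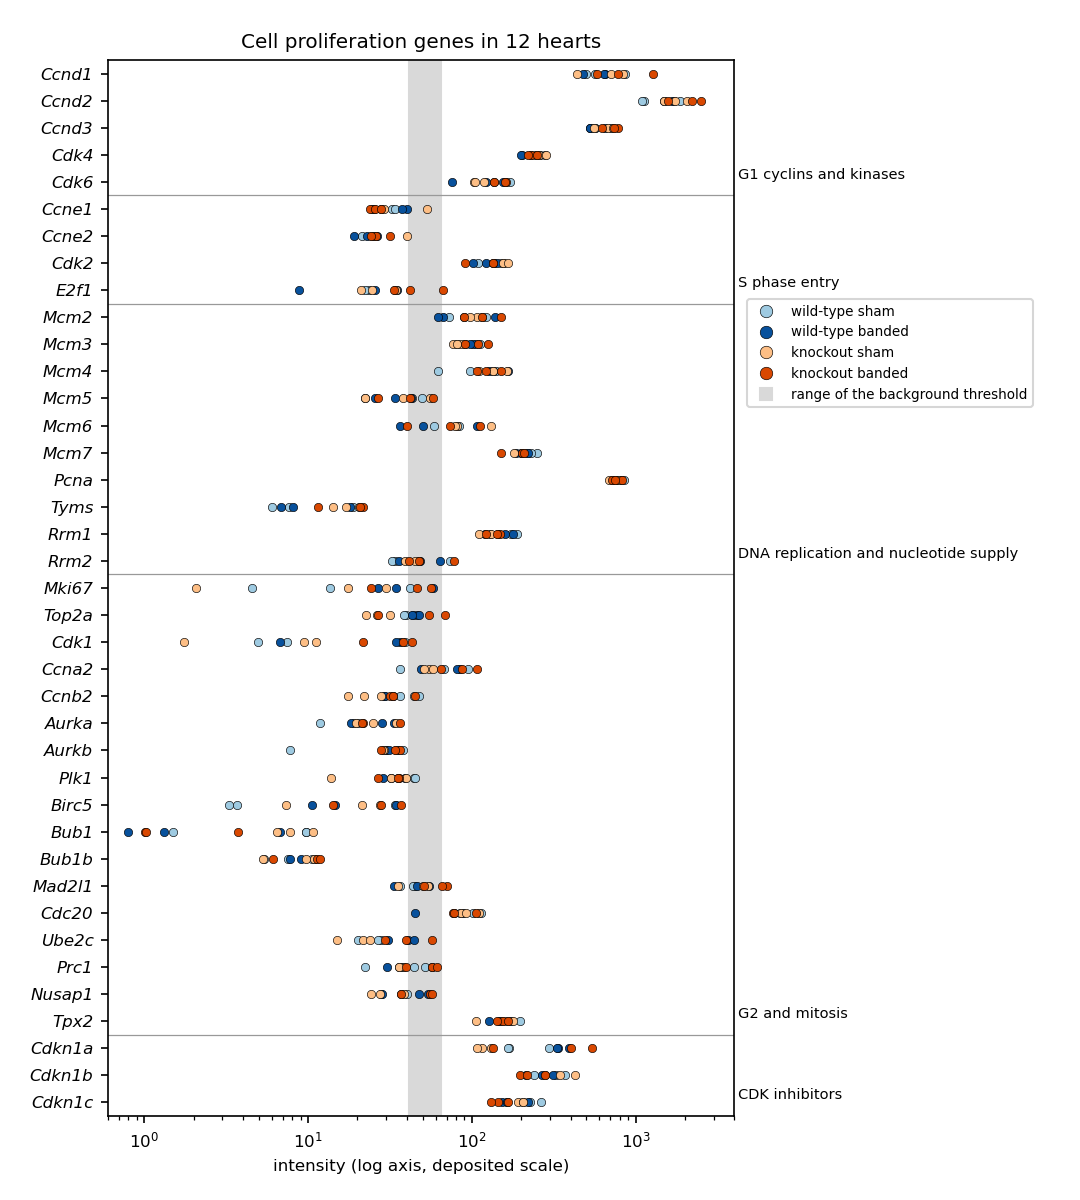
Intensity of each of the 39 measured genes in every array, on a log axis, with 1 row a gene in the order of the cell cycle and 1 point an array, coloured by group. The grey band is the range of the background threshold over the arrays, 41.2 to 65.1: the G1 genes and the CDK inhibitors lie to its right in all groups, and most G2 and mitosis genes lie in it or to its left.

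Group differences were tested on log2(intensity + 16) in a limma fit of all 12 arrays, over the 10916 genes with the highest mean, which took in 21 of the members. The threshold was a p of 0.05 after Benjamini-Hochberg adjustment over these 10916 genes. For banding in knockout hearts 0 of 21 members passed, where 416 of all genes (3.81%) did, and for banding averaged over the genotypes 0 of 21, where 175 (1.6%) did. In the other 5 contrasts no gene of the whole table passed (0%). These counts over all genes moved with single arrays. For banding in knockout hearts there were 1441 without knockout banded 1 and 9 to 88 without any one of the other 5 knockout arrays. For the average there were 996 without knockout banded 1, 108 and 164 without wild-type banded 3 and wild-type sham 1, and 5 to 41 without any one of the remaining 9. Without knockout banded 1, 667 genes and no member passed for knockout against wild type in banded hearts, 141 and no member over both surgeries, and 208 and no member for the interaction. At an unadjusted p under 0.05 there were 6 of 21 members for banding in knockout hearts against 21.1% of all genes, 2 for banding in wild-type hearts against 4.89%, and 3 for the average against 18.2%. There were 2 for knockout against wild type in sham hearts against 5.22%, 1 in banded hearts against 14.6%, 2 over both surgeries against 10.6%, and 1 for the interaction against 9.11%. The interaction is the banding difference in knockout minus that in wild-type hearts.

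The median banding difference of the 21 members was -0.10 in wild-type hearts and 0.12 in knockout hearts, beside -0.022 and -0.018 over all tested genes. For the interaction it was 0.23, beside 0.0023 over all tested genes. The arrays of banded and sham hearts did not overlap for 1 of 21 members in wild-type hearts, Cdkn1a, beside 9.93% of all tested genes. In knockout hearts they did not overlap for 7 of 21, beside 26.6%: Cdk6, Mcm3, Ccna2 and Cdkn1a were higher with banding, and Cdk2, Cdkn1b and Cdkn1c lower.

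**Figure D2:**
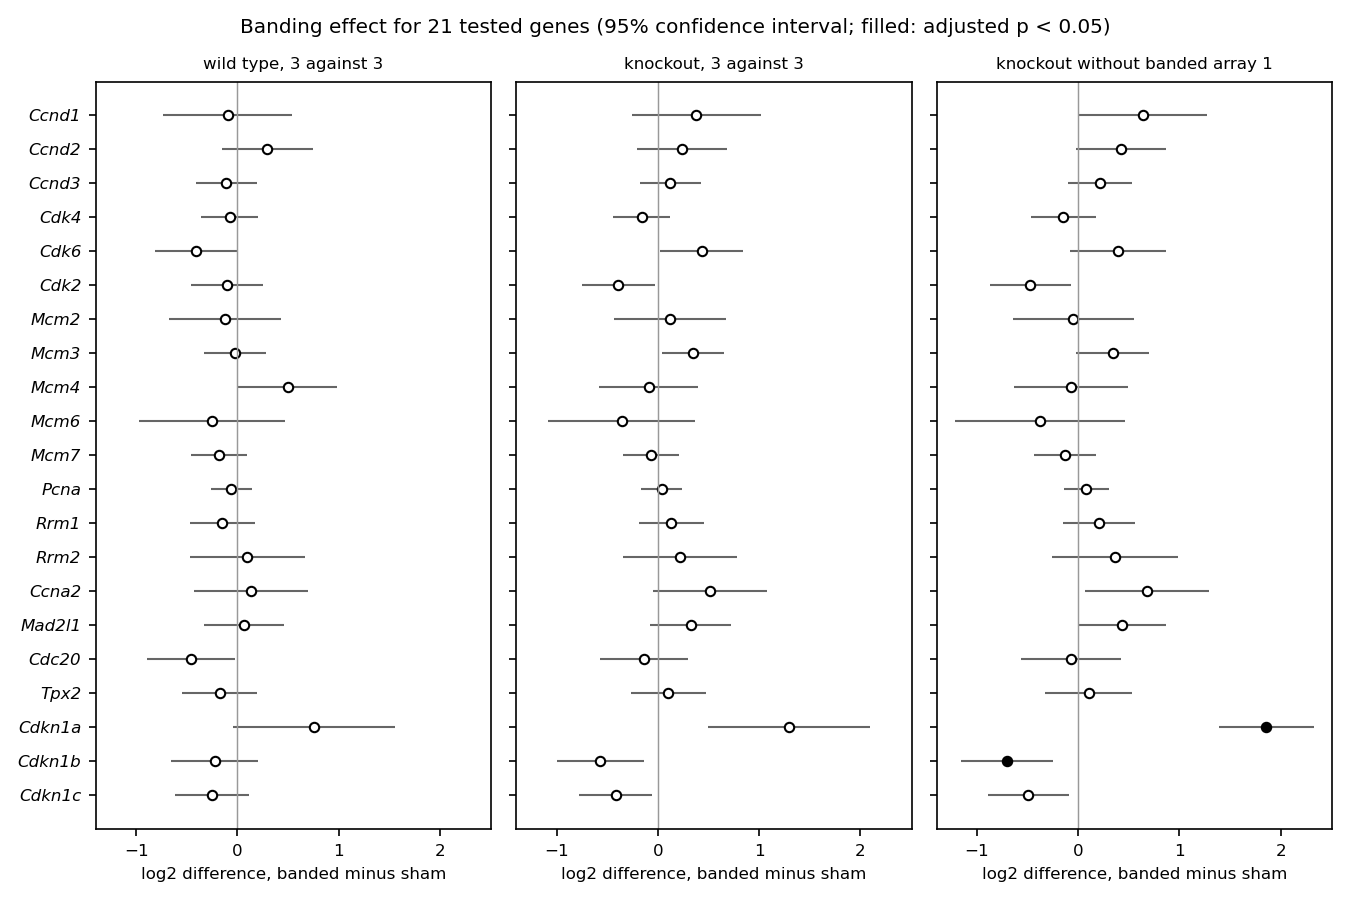
Banding difference (banded minus sham, log2) of the 21 tested genes, with 95% confidence intervals from the limma fit, in wild-type hearts, in knockout hearts, and in knockout hearts without the array labelled knockout banded 1. Filled points passed at an adjusted p under 0.05, which held for Cdkn1a and Cdkn1b in the right panel and for no gene in the other panels.

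The CDK inhibitors lay on opposite sides, with Cdkn1a higher on average and Cdkn1b and Cdkn1c lower in banded hearts. Cdkn1a encodes p21, which stops the cycle after DNA damage and other stress, largely through p53. Its intensity was 168, 296 and 165 in the sham and 334, 332 and 393 in the banded arrays of the wild type, and 130.5, 116 and 108 in the sham and 135, 405 and 542 in the banded arrays of the knockout. All wild-type banded arrays were above all wild-type sham arrays, and knockout banded 2 and 3 were the highest of all 12 while knockout banded 1 was barely above the highest knockout sham array. The banding difference was 0.75 (SE 0.37, adjusted p = 0.921) in wild-type hearts, 1.30 (SE 0.37, adjusted p = 0.0709) in knockout hearts and 1.03 (SE 0.26, adjusted p = 0.0711) as their average. Without the array labelled knockout banded 1, Cdkn1a rose by 1.86 in knockout hearts (SE 0.22, adjusted p = 3.0e-04) and by 1.31 on average (SE 0.14, adjusted p = 3.3e-04), where 1441 (13.2%) and 996 (9.12%) of all genes passed. The banding differences of the 2 genotypes were not shown to differ, with an interaction of 0.54 (SE 0.52, adjusted p = 0.778). A second Cdkn1a probe set was below background in all arrays.

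Cdkn1b encodes p27, which holds resting cells out of the cycle. It read 328, 239 and 371 in the sham and 268, 311 and 213 in the banded arrays of the wild type, and 279.6, 424 and 346 in the sham and 279, 195 and 216 in the banded arrays of the knockout. In knockout hearts all 3 banded arrays were below the 3 sham arrays, narrowly for banded 1 against sham 1, and the wild-type groups overlapped. The banding difference was -0.57 (SE 0.20, adjusted p = 0.122) in knockout and -0.22 (adjusted p = 0.982) in wild-type hearts. Without knockout banded 1 it fell by 0.71 in knockout hearts (SE 0.21, adjusted p = 0.0437), which passed. Cdkn1c, which encodes p57, read 225, 164 and 263 in the sham and 153, 220.2 and 164 in the banded arrays of the wild type, and 191, 206 and 204 in the sham and 166, 144 and 131 in the banded arrays of the knockout. Its knockout groups did not overlap and its wild-type groups did, with a banding difference of -0.41 (adjusted p = 0.178) in knockout, -0.25 (adjusted p = 0.947) in wild-type and -0.33 (adjusted p = 0.164) in both. Without knockout banded 1 it was at -0.50 in knockout hearts (adjusted p = 0.101).

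**Figure D3:**
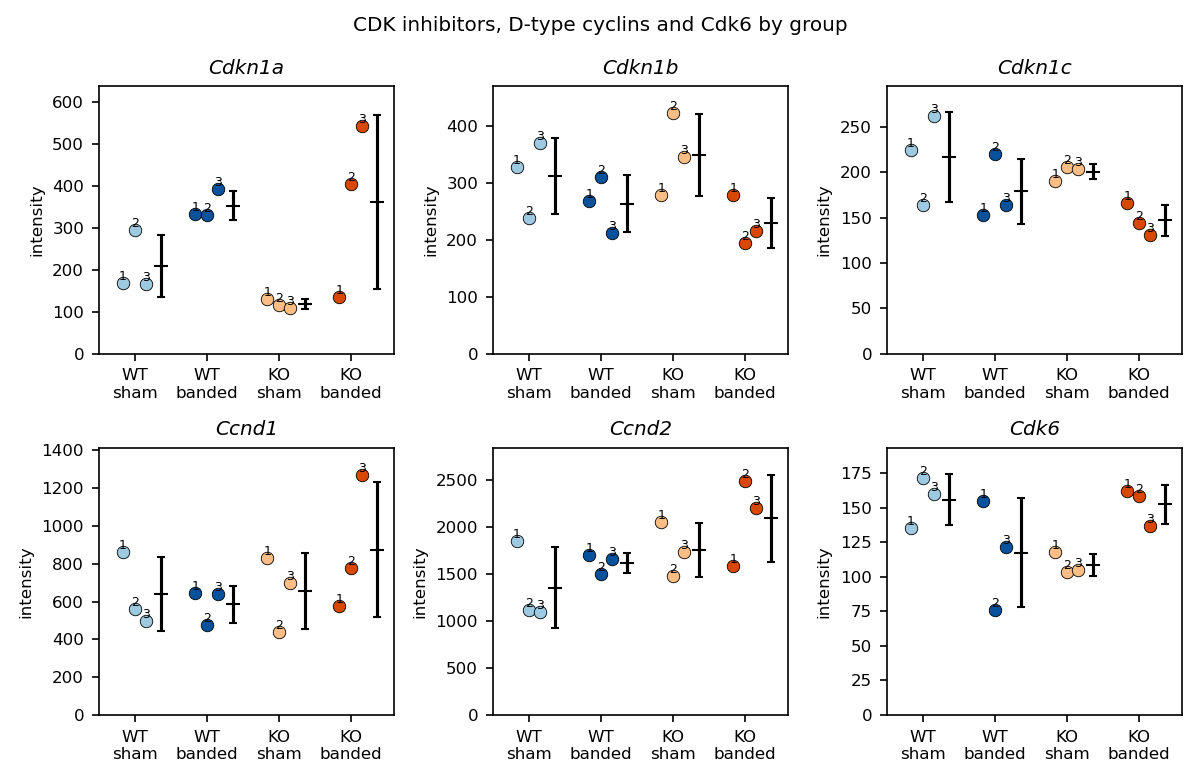
Intensity of the CDK inhibitor genes (top) and of Ccnd1, Ccnd2 and Cdk6 (bottom) in the 4 groups, with 1 numbered point an array and the mean with SD of 3 arrays beside each group. Cdkn1a is high in all banded arrays except knockout banded 1, and Cdk6 is lower on average in wild-type banded than sham hearts and higher in all knockout banded than knockout sham arrays.

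Among the G1 cyclins and kinases, 0 of 5 genes passed in any contrast, and the D-type cyclins were present in every heart. Cyclin D2, encoded by Ccnd2, pairs with CDK4 and CDK6 to begin the cycle. Ccnd2 read 1851, 1116 and 1091 in the sham and 1699.7, 1495 and 1656 in the banded arrays of the wild type, and 2048, 1479 and 1730.2 in the sham and 1584, 2485 and 2196 in the banded arrays of the knockout. Sham and banded arrays overlapped in both genotypes, with the 2 highest values in knockout banded 2 and 3. Its banding difference was 0.30 in wild-type, 0.24 in knockout and 0.27 (SE 0.15, adjusted p = 0.364) in both, and all 7 Ccnd2 probe sets were on the positive side in both genotypes. For Ccnd1, encoding cyclin D1, the means were 640.2 ± 194 in sham and 587 ± 98.2 in banded wild-type hearts, and 656 ± 200.1 in sham and 875 ± 356 in banded knockout hearts (SD, n = 3), differences smaller than or close to the spread within a group. Its 3 probe sets gave banding differences of -0.097, 0.076 and 0.50 in wild-type and 0.38, 0.75 and 0.43 in knockout hearts, so they disagreed in sign in the wild type. The probe sets that stood for Ccnd3 and Cdk4 stayed within -0.16 and 0.12 for banding in either genotype. A dimmer Ccnd3 probe set, above background in 10 arrays, was at -0.27 in wild-type and -0.35 in knockout hearts. The other Cdk4 probe sets, above background in all arrays, were at -0.16 and -0.13 in wild-type and -0.096 and -0.27 in knockout hearts.

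Cdk6 had the largest interaction among the members. The gene encodes the second G1 kinase partner of the D-type cyclins. Its intensity was 135, 172 and 160.0 in the sham and 155, 75.8 and 122 in the banded arrays of the wild type, and 118, 103 and 105 in the sham and 162, 159 and 136 in the banded arrays of the knockout. Wild-type banded values spread from 75.8 to 154.6 and overlapped the sham values, while the knockout banded arrays, number 1 included, were all above the knockout sham arrays. The banding difference was -0.40 (SE 0.19, adjusted p = 0.921) in wild-type and 0.43 (SE 0.19, adjusted p = 0.209) in knockout hearts, and the interaction was 0.84 (SE 0.27, unadjusted p = 0.00802, adjusted p = 0.442), which did not pass. A second probe set above background in all arrays lay on the same sides, at -0.35 in wild-type and 0.28 in knockout hearts.

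Of the S phase entry genes, Cdk2 alone was above background in at least 3 arrays. CDK2 partners cyclin E and cyclin A. Cdk2 read 149, 137 and 109 in the sham and 122, 143 and 101 in the banded arrays of the wild type, and 157, 155 and 166 in the sham and 134, 133 and 90.6 in the banded arrays of the knockout. Knockout banded arrays were all below knockout sham arrays, which were the highest group, and the wild-type groups overlapped. The banding difference was -0.39 (adjusted p = 0.197) in knockout and -0.10 (adjusted p = 0.987) in wild-type hearts. The cyclin E genes Ccne1 and Ccne2 ranged from 19.0 to 53.0 over the arrays and E2f1, a transcription factor of S phase genes, from 8.77 to 67.0, with E2f1 above the threshold in knockout banded 2 alone.

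Of the 10 genes of DNA replication and nucleotide supply, 6 were above background in all arrays, and none of the 8 tested passed in any contrast. The MCM proteins form the helicase that opens DNA at replication origins. Mcm3 read 111, 106 and 81.1 in the sham and 101, 90.5 and 97.9 in the banded arrays of the wild type, and 76.7, 85.4 and 81.2 in the sham and 109, 125 and 90.7 in the banded arrays of the knockout. Its knockout banded arrays lay above the knockout sham arrays, and the wild-type groups overlapped. The banding difference was 0.35 (adjusted p = 0.183) in knockout and -0.027 (adjusted p = 0.994) in wild-type hearts, and the 4 dimmer Mcm3 probe sets, above background in at most 3 arrays, ranged from -0.78 to 0.53 in knockout hearts. Mcm4 read 96.7, 141 and 62.3 in the sham and 134, 165 and 127 in the banded arrays of the wild type, and 164, 135 and 111 in the sham and 123, 150.4 and 107 in the banded arrays of the knockout, with wild-type sham 1 and 3 the lowest of the 12. That gave 0.50 (adjusted p = 0.921) for banding in wild-type hearts, -0.091 in knockout hearts and -0.59 (adjusted p = 0.593) for the interaction. The second Mcm4 probe set was at 0.14 and -0.030 for the same banding differences.

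Mcm7 read 248, 229 and 215 in the sham and 221, 200.3 and 185 in the banded arrays of the wild type, and 179, 204 and 202 in the sham and 203, 207 and 151 in the banded arrays of the knockout, a narrow range, with a banding difference of -0.12 (adjusted p = 0.501) over both genotypes. Pcna, which encodes the sliding clamp of DNA polymerase, was among the steadiest members, with means of 807 ± 42.0 in sham and 774 ± 46.3 in banded wild-type hearts, and 743 ± 52.2 in sham and 763 ± 58.3 in banded knockout hearts (SD, n = 3). The 95% confidence interval of its average banding difference ran from -0.15 to 0.13. The interval of Mcm6, from -0.82 to 0.21, was wide, with values from 36.3 to 130.7 that overlapped between groups. The probe sets that stood for Mcm2, and for the ribonucleotide reductase genes Rrm1 and Rrm2, which supply deoxynucleotides, were between -0.15 and 0.22 for banding in either genotype. A second Rrm1 probe set, above background in all arrays, was at -0.072 in wild-type and 0.35 in knockout hearts. Its knockout banded readings (118.9 to 154.3) lay above its knockout sham readings (92.9 to 106.0). Mcm6 was above background in 9 arrays, Rrm2 in 4, Mcm5 in 3 and Tyms, encoding thymidylate synthase, in none.

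The G2 and mitosis genes were near or below background in most arrays. Of the 17 measured genes, 2 to 5 exceeded the threshold in each array of the 2 wild-type groups and 2 to 4 in each knockout sham array. In the knockout banded arrays the numbers were 4, 11 and 7, with knockout banded 1 the lowest. Knockout banded 2, with 11, also had the lowest threshold of all arrays, 41.2, and its Cdk1 (43.0) and Ccnb2 (45.1) readings would exceed no other array's threshold. With 1 threshold for all arrays, the median of 51.4, a setting chosen after seeing the data, the numbers were 2 to 5 in wild-type arrays, 2 to 4 in knockout sham arrays and 3, 9 and 7 in knockout banded arrays. In RNA of whole hearts, a change in the number of cycling cells and a change in RNA per cell cannot be told apart. Cyclin A2, encoded by Ccna2, acts in S phase and G2 and was above background in 10 arrays. It read 94.6, 67.8 and 36.1 in the sham and 84.8, 81.2 and 49.0 in the banded arrays of the wild type, and 55.0, 51.0 and 57.4 in the sham and 64.4, 107 and 87.4 in the banded arrays of the knockout. The knockout banded arrays were above the knockout sham arrays, and the wild-type sham arrays spread over nearly the whole range. Its banding difference was 0.52 (SE 0.26, adjusted p = 0.276) in knockout and 0.13 (adjusted p = 0.992) in wild-type hearts, and a second probe set gave 0.31 and 0.079.

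Mad2l1, Cdc20 and Tpx2 were the other tested genes of this phase. Mad2l1, whose product delays anaphase until chromosomes are attached, read 36.2, 45.1 and 43.6 in the sham and 54.8, 46.1 and 33.6 in the banded arrays of the wild type, and 35.5, 50.4 and 54.1 in the sham and 50.9, 70.0 and 65.6 in the banded arrays of the knockout. Knockout banded 2 and 3 were the highest arrays, the groups overlapped, and the gene was above background in 4 arrays. Its banding difference in knockout hearts was 0.32 (adjusted p = 0.334). Cdc20, which activates the anaphase-promoting complex, read 113, 84.6 and 101 in the sham and 88.1, 44.7 and 77.3 in the banded arrays of the wild type, and 109.9, 86.1 and 92.5 in the sham and 76.4, 77.7 and 105 in the banded arrays of the knockout. Its lowest value was wild-type banded 2, and the average banding difference was -0.30 (adjusted p = 0.291). The second Cdc20 probe set, above background in 5 arrays, was at -0.22 in wild-type and at 0.60 in knockout hearts, where the first was at -0.14. The probe set that stood for Tpx2, a spindle assembly factor, was above background in all arrays, at -0.17 and 0.10 in wild-type and knockout hearts. A second, also above background in all arrays, was at -0.052 and 0.11. The remaining Tpx2 probe sets were above background in no array.

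The standard markers of dividing cells were too dim for the test of the 10916 genes. They were fitted together with all 18193 genes, where 212 genes passed for banding in knockout hearts and none of the 18 untested members did. Mki67, which encodes the proliferation antigen Ki-67, read 41.9, 4.56 and 13.7 in the sham and 26.7, 57.5 and 34.4 in the banded arrays of the wild type, and 29.8, 17.6 and 2.06 in the sham and 24.2, 56.2 and 46.1 in the banded arrays of the knockout. It exceeded the threshold in wild-type banded 2 and knockout banded 2 alone, and sham and banded values overlapped in both genotypes. Cdk1, the kinase of mitotic entry, read 39.2, 7.40 and 4.96 in the sham and 6.75, 36.6 and 34.5 in the banded arrays of the wild type, and 11.1, 1.75 and 9.48 in the sham and 21.6, 43.0 and 38.1 in the banded arrays of the knockout. The knockout banded arrays were above the knockout sham arrays, but just 1 of the 12 arrays, knockout banded 2, exceeded the threshold. Top2a, the topoisomerase that untangles replicated DNA, read 39.4, 38.3 and 43.8 in the sham and 46.0, 47.4 and 42.9 in the banded arrays of the wild type, and 31.7, 26.5 and 22.6 in the sham and 26.5, 68.8 and 54.3 in the banded arrays of the knockout. Knockout banded 2 and 3 exceeded the threshold, and knockout banded 1 lay within the knockout sham values. The fitted banding differences in knockout hearts were 0.90 (adjusted p = 0.325) for Mki67, 1.10 (adjusted p = 0.197) for Cdk1 and 0.57 (adjusted p = 0.245) for Top2a, and in wild-type hearts 0.72, 0.39 and 0.12. These are differences between readings mostly below the background threshold.

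Ube2c, the ubiquitin-conjugating enzyme of the anaphase-promoting complex, was above the threshold in knockout banded 2 alone. It read 20.1, 27.7 and 26.7 in the sham and 40.4, 44.3 and 30.8 in the banded arrays of the wild type, and 14.9, 21.8 and 23.9 in the sham and 29.6, 56.9 and 39.4 in the banded arrays of the knockout. All banded readings were above all sham readings, but 11 of the 12 were below the threshold, where readings cannot be ordered between groups. The average banding difference was 0.54 (SE 0.14, adjusted p = 0.125). Over all 18 untested members, 15 had a positive banding difference in knockout hearts and 12 in wild-type hearts, with medians of 0.23 and 0.10 beside -0.013 and -0.026 over all 18193 genes. In knockout hearts 7 of the 18 had an unadjusted p under 0.05, beside 15.4% of all 18193 genes, with Bub1, a checkpoint kinase gene, on the negative side at readings of 0.799 to 10.8. Ccnb2, encoding cyclin B2, read between 17.5 and 47.6 and exceeded the threshold in 2 arrays. The remaining untested genes of G2 and mitosis, Aurka, Aurkb, Plk1, Birc5, Bub1b, Prc1 and Nusap1, read between 3.29 and 61.6.

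**Figure D4:**
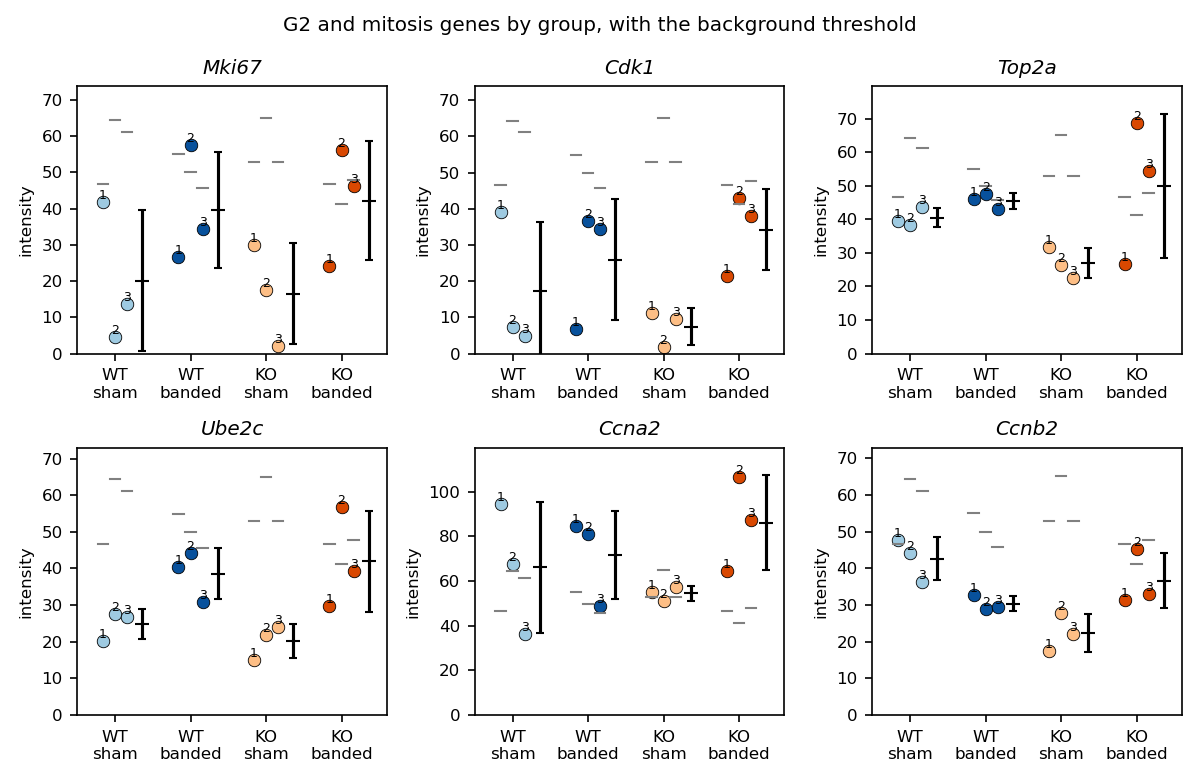
Intensity of 6 genes of G2 and mitosis in the 4 groups, with 1 numbered point an array, the mean with SD of 3 arrays beside each group, and a grey dash at that array's background threshold. Ccna2 lies above the threshold in 10 arrays, and the other 5 genes exceed it in 1 or 2 arrays each.

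Many genes of this phase share promoter motifs. Windows of 300 bases, from 250 before to 50 after the start of transcription, were at hand for 32 of the 40 members in RefSeq's annotation of GRCm38.p6. The cell cycle homology region, TTTGAA on either strand, is bound by the repressor and activator complexes that time mitotic genes, and it was found in 10 of 15 genes of G2 and mitosis (66.7%), against 20.2% of the windows of all 27025 genes. A CCAAT box (CCAAT, either strand) was found in 12 of the 15 (80.0%), against 41.1% of all genes, and in 8 of 9 replication genes (88.9%). The E2F site TTTGGCGC or TTTCGCGC, either strand, was found in 4 of 9 replication genes (44.4%), against 0.929% of all genes. Neither Cdkn1a nor Cdkn1b, the inhibitors with a window, held the cell cycle homology region or that E2F site. Motifs were searched separately, so that matches of different motifs could overlap, and a match is a description of the letters and not a measured binding site.

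Shown next are the 120 bases before the start of transcription of Cdk1, Ube2c, Top2a and Mki67, 4 genes of G2 and mitosis whose readings are given above, with TTTGAA and CCAAT, on either strand, in capitals. They lie at chr10:69352913-69353032 (minus strand) for Cdk1, chr2:164769809-164769928 (plus strand) for Ube2c, chr11:99024190-99024309 (minus strand) for Top2a and chr7:135716380-135716499 (minus strand) for Mki67, in GRCm38.p6. For Cdkn1a, at chr17:29093649-29093768 (plus strand), the capitals mark the GC box GGGCGG, which stood in the windows of 26 of the 32 members (81.2%) and of 38.2% of all genes. The stretch shown for Cdkn1a is that of the more downstream of its annotated starts.

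Cdk1: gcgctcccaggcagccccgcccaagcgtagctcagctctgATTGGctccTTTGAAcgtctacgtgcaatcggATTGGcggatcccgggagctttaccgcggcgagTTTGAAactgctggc

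Ube2c: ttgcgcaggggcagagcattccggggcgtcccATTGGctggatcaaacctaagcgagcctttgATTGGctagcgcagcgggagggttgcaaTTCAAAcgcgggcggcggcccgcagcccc

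Top2a: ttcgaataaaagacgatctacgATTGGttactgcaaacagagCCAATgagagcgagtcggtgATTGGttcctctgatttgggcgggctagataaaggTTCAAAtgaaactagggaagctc

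Mki67: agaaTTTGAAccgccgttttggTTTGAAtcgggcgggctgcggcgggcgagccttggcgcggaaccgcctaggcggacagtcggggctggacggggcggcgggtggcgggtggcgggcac

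Cdkn1a: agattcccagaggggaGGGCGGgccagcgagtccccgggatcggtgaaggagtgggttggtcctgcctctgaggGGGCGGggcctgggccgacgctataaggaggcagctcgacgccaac

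Sums of marker lists were read beside the summed mitotic readings. Of the 17 mitotic genes just 6 were above background in at least 3 arrays, which limits any ranking of arrays by their sum. The summed intensity of the 17 genes of G2 and mitosis was highest in knockout banded 2 (931), knockout banded 3 (886), wild-type sham 1 (798) and wild-type banded 2 (766). The same 4 arrays had the highest sums of the 11 macrophage markers, at 5837, 5964, 6028 and 6547. This was not particular to macrophages. Knockout banded 2, knockout banded 3 and wild-type banded 2 had the highest sums of fibroblast markers (28381, 25056 and 23948). They also had the highest sums of erythroid markers (1474, 1528 and 1583), of which 2 of 5 were above background in at least 3 arrays. Macrophage sums ranged from 4172 to 6028 in sham and 4531 to 6547 in banded wild-type arrays, and from 4030.2 to 4851 in sham and 3760.0 to 5964 in banded knockout arrays, with knockout banded 1 the lowest of all. Of these markers 10 of 11 were above background in all arrays.

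Fibroblast markers, 11 of 11 above background in all arrays, summed to 16464 to 20478 in sham and 21216 to 23948 in banded wild-type arrays, and to 15263 to 17951 in sham and 16291 to 28381 in banded knockout arrays, with the last group's highest sums again in arrays 2 and 3. In the limma fit 4 of 11 fibroblast markers (Col1a1, Col3a1, Mfap5 and Postn) rose with banding in knockout hearts, beside 3.81% of all genes. Of the 11 differences there, 9 were positive and 2 negative. In wild-type hearts none passed, where no gene of the table did. The count in knockout hearts was 5 without knockout banded 1, where 13.2% of all genes passed. It was 0 without any one of the other 5 knockout arrays. Of the macrophage markers, 0 of 10 tested passed in either genotype in limma, with 0 at an unadjusted p under 0.05. Endothelial sums, with all 11 markers above background in all arrays, stayed between 5103 and 6781. The highest were in wild-type sham 1 (6781), knockout banded 3 (6367) and knockout banded 2 (6218), arrays that also had high mitotic sums. Cardiomyocyte sums were 99105 to 110299 in sham and 82685 to 85089 in banded knockout arrays, without overlap, and 82033 to 154941 in sham and 93791 to 116334 in banded wild-type arrays. Of the 10 cardiomyocyte markers 1 passed for banding in knockout hearts: Ryr2, the calcium release channel gene, fell by 0.53 (adjusted p = 0.0320). It did not pass without any one of knockout sham 1 to 3 or knockout banded 2 or 3. The sums of 7 atrial muscle markers varied within every group and ran from 4645 to 35072 over the arrays. Smooth muscle and pericyte sums were lowest in knockout banded 3 (5885) and stood at 8935 in wild-type sham 1. Neutrophil sums were lowest in knockout banded 2 (158) and wild-type sham 1 (159.9), and highest in wild-type banded 2 (2079). Among lymphocyte markers 5 of 9, with Cd3e, Cd3d, Cd4, Cd79b and Nkg7, and among neutrophil markers 3 of 7 were above background in no array. The part of these cell types in the results on proliferation genes was not tested.

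**Figure D5:**
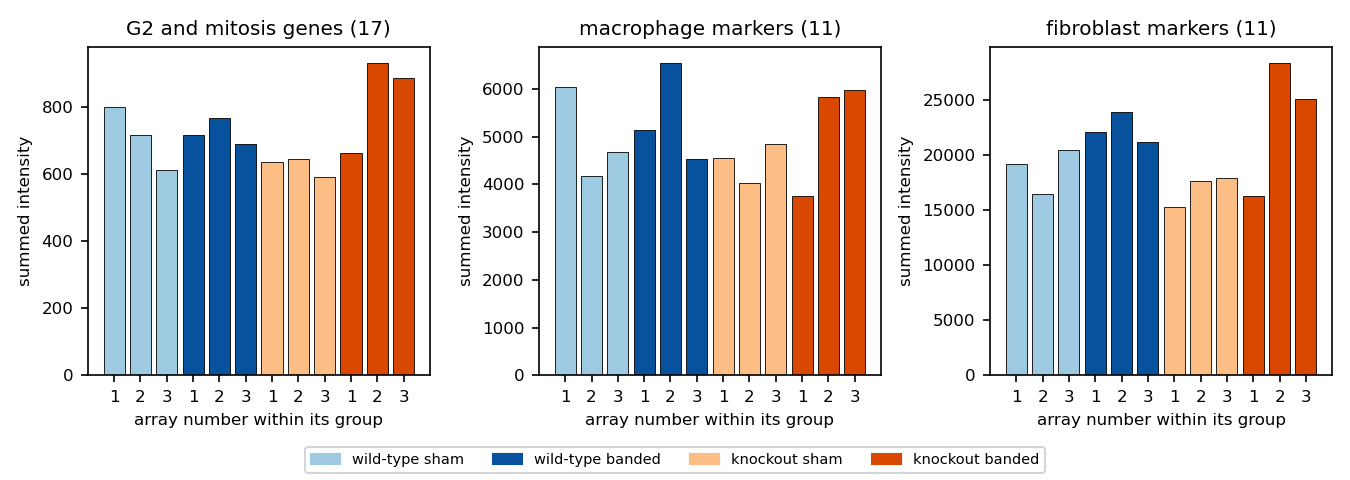
Summed intensity in each array of the 17 measured genes of G2 and mitosis, of 11 macrophage markers and of 11 fibroblast markers, with 1 bar an array, coloured by group, from 0. Knockout banded 2 and 3 have the highest bars for the mitotic genes and the fibroblast markers, and knockout banded 1 is close to the knockout sham bars for the mitotic genes and lowest for the macrophage markers.

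Between the genotypes no member passed in sham hearts, in banded hearts or over both, as no gene of the table did. The knockout and wild-type sham arrays did not overlap for 5 of 21 tested members, beside 10.8% of all tested genes: Cdk2 was higher in the knockout, at 0.26 (adjusted p = 0.948), and Cdkn1a, Cdk6, Mcm7 and Rrm1 were lower. In sham hearts Cdkn1a was lower in every knockout than in every wild-type array, at -0.71 (SE 0.37, adjusted p = 0.930), and in banded hearts the groups overlapped, at -0.16 (adjusted p = 0.879). Cdk6 was lower in all knockout sham arrays, at -0.46 (adjusted p = 0.930), and so were Rrm1, at -0.41 (adjusted p = 0.930), and Mcm7, at -0.22 (adjusted p = 0.930). The second Cdk6 probe set was also lower in all knockout sham arrays. The other Rrm1 and Mcm7 probe sets above background in all arrays overlapped between the sham groups. For Rrm1 the second read 102.1 to 121.3 in wild-type and 92.9 to 106.0 in knockout sham arrays. Cyclin D genes were on the positive side in knockouts, with Ccnd2 at 0.37 (adjusted p = 0.432) and Ccnd3 at 0.21 (adjusted p = 0.473) over both surgeries. All 5 G1 genes were on the positive side for knockout against wild type in banded hearts, from 0.032 for Cdk4 to 0.50 for Ccnd1, where 50.6% of all tested genes were positive.

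The other genes of the cell cycle were taken from 3 lists that share no gene with the 40. Of 25 tested genes of the list of other replication genes, 1 fell with banding in knockout hearts, 0 rose and 24 did not pass, a share near the 3.81% of all genes. This was Dut, whose product keeps uracil out of DNA. It read 176, 193 and 196 in the sham and 143, 187 and 182 in the banded arrays of the wild type, and 178, 203 and 191 in the sham and 151, 123 and 115 in the banded arrays of the knockout, with the 3 knockout banded arrays below the knockout sham arrays, and fell by 0.51 (SE 0.13, adjusted p = 0.0467). Dut passed without wild-type banded 1 or knockout banded 1, and did not pass without any one of the other 10 arrays (adjusted p from 0.0530 to 0.191). Of 20 tested other mitosis genes and 33 tested other regulators, 0 passed in limma, with 3 and 4 at an unadjusted p under 0.05, beside 21.1% of all genes. The median banding difference in knockout hearts was -0.11 for other replication genes, 0.046 for other mitosis genes and -0.069 for other regulators, beside -0.018 over all tested genes. In wild-type hearts and in the average no gene of the 3 lists passed, with medians of -0.13, 0.020 and -0.051 in wild-type hearts.

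Without the array labelled knockout banded 1, 6 of the 78 tested genes of these lists passed for banding in knockout hearts, where 13.2% of all genes did. Cenpf, a kinetochore protein gene, fell by 2.15 (SE 0.41, adjusted p = 0.00551), after readings of 118, 189.9 and 440.1 in the sham and 114, 152 and 119 in the banded arrays of the wild type, and 197, 345 and 416 in the sham and 211, 62.6 and 51.1 in the banded arrays of the knockout. Wild-type sham 3 and knockout sham 2 and 3 were its highest arrays, and knockout banded 1 read close to knockout sham 1. Dut fell by 0.61, the stress-induced gene Gadd45a by 0.60, the securin gene Pttg1 by 0.50 and Ccnh, a subunit of the CDK-activating kinase, by 0.39, and E2f3, a transcription factor of the E2F family, rose by 0.51. Averaged over the genotypes, Cenpf (-1.42) and Dut (-0.38) passed without that array.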

How the data were processed

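Heart RNA (Trizol, biotin label, per the labels' protocols) was measured on 12 arrays. The authors deposited a linear intensity per probe set, made by software not given in the sources used here. Since the mean of every array, without the outer 2% at each end, was 150.0, no scaling was added. Of 45101 probe sets, 64 controls were left out, and 34945 had a single gene in the platform annotation, 932 several and 9160 none listed. Arrays have no read depth, so their number limits the precision.

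Values were transformed as log2(intensity + 16). The upper 60% of genes by mean, 10916 of 18193, entered limma 3.58.1 in R 4.3.3 with 4 group means, a variance trend and 8 residual degrees of freedom. The 7 contrasts were two-sided with Benjamini-Hochberg adjustment, and intervals are at 95%. For 3 arrays against 3, an exact permutation test cannot go below p = 0.10, and no permutation test was used for any contrast. The same steps were tested on simulated data.

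The members, lists and tests were chosen with earlier results of these data known. Values in every array are given for the 12 members with the smallest p for banding in knockout hearts, banding averaged or the interaction, and for Mki67, Top2a and Cdk1; Ube2c (per array), Pcna and Ccnd1 (means) were added after their values were seen. Of the other cell cycle lists, genes that passed are named. Marker lists of cardiomyocytes (all and atrial), endothelium, fibroblasts, smooth muscle and pericytes, macrophages, lymphocytes, neutrophils and erythroid cells were read per array. Replicate numbers did not pair the arrays: same-numbered arrays had correlations of -0.28 to 0.23 in their deviations (median -0.018, 18 pairs). Other settings tried were the filter, pseudocount, scaling, probe set rule, variance model, array weights, groups fitted, replicate block, background percentile and leaving out arrays.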

Additional observations from a re-analysis of the deposited data

Results flagged for a closer look

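Ccnb2, which encodes cyclin B2 of the mitotic kinase, had banding differences of opposite sign in the genotypes, in readings that were below the background threshold in 10 of the 12 arrays and cannot be ordered between groups there. It read 47.6, 44.1 and 36.1 in the sham and 32.7, 28.9 and 29.5 in the banded arrays of the wild type, and 17.5, 27.8 and 22.0 in the sham and 31.5, 45.1 and 33.1 in the banded arrays of the knockout, so that all banded arrays were below all sham arrays in the wild type and above them in the knockout. In the fit of all 18193 genes the interaction was 0.78 (SE 0.24, unadjusted p = 0.00675, adjusted p = 0.535), which did not pass.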

How the results depend on the processing

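The number of members that passed was recomputed under 24 alternatives, and of 165 such counts 159 were 0. For banding in knockout hearts the reported count of 0 became 3 with array weights (Cdkn1a, Cdkn1b and Cdkn1c) and 2 without knockout banded 1 and wild-type banded 3 (Cdkn1a and Cdkn1b), and leaving out each array in turn gave 0 to 2, the 2 without knockout banded 1. For the average over genotypes it became 1 (Cdkn1a) with array weights and 1 without both arrays, and 0 to 1 leaving out each array in turn. The cause was not tested. Over the alternatives run, the 12 named tested genes kept their direction, and 272 of 278 values stayed on the same side of the threshold; the other 6 were Cdkn1a (average) and Cdkn1b (knockout) under the 3 settings above. Cdkn1a on average ranged from 0.74 to 1.31 (adjusted p from 3.3e-04 to 0.175) and the Cdk6 interaction from 0.47 to 1.04 (adjusted p from 0.193 to 0.807). With the replicate block, which pairs arrays by their number, 0 members passed in any contrast and Cdkn1a on average was at 1.03 (adjusted p = 0.0893). Among all genes, banding in knockout hearts gave 416 calls as reported, 1870.0 with array weights, 1349 without knockout banded 1 and wild-type banded 3, 237 with the replicate block, 212 with no filter and 74 with only the groups compared, and 9 to 1441 leaving out each array in turn. The average gave 175, then 769 with array weights, 928 without both arrays, 60 with the replicate block, 77 with no filter and 88 without the variance trend. Knockout against wild type in banded hearts gave 0, then 581 with array weights and 354 without both arrays, where the contrast over both surgeries gave 83 and the interaction 96. Dut did not pass under 6 of the alternatives that keep every array. With the 75th percentile of the receptor probe sets as threshold 36 members were above background, with the 99th 20, and with 1 threshold for all arrays, added after seeing the data, 23. Quantile and median scaling moved the median of all genes by at most 0.060. Wild-type banded 3, left out together with knockout banded 1, is the array with the low Myh7 and high Xist readings. Members below background cannot be ordered between groups at these signals.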
